A study of Mus musculus with 6 samples.

Results

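The 10 genes described here lie on mouse chromosome 12 on either side of Sp4, which encodes a zinc-finger transcription factor that binds GC-rich promoter elements in neurons. They are Rapgef5, Cdca7l, Itgb8, Tmem121, Nudt14, Rd3l, Slc25a47, Evl, Eml1 and Cyp46a1. Of these 10 genes, 8 are among the 10764 named genes with a tested probe. Every probe that the platform annotation gives to 1 of these genes was taken, tested or not. The genes were chosen with their differences between the 2 genotypes already known, so these differences are a description and carry no test. Cerebellum of 3 male mice homozygous for the hypomorphic allele Sp4neo (labelled Sp4neo-/-) was compared with that of 3 male wild-type littermates, all at postnatal day 21 and from a cross of Black Swiss and CD1 mice. A hypomorphic allele lowers the amount or function of its product without necessarily removing it. RNA of each animal was read on 1 Illumina bead array with 45281 probes, and all values are intensities, which show relative levels of 1 probe between arrays and not levels of one gene against another. Arrays are called hypomorph 1 to 3 and wild type 1 to 3.

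An allele made by gene targeting is inherited together with the DNA that surrounds it, until crossing-over separates them, so genes beside a targeted gene can come from another strain than the same genes of control littermates. Such neighbours, called passenger genes, can differ in level or in sequence between carriers and non-carriers. Black Swiss and CD1 mice are outbred stocks, in which animals also differ from each other. The labels do not name the strain in which the allele was made, the arrays read no genotype, and the origin of the DNA around Sp4 was not tested.

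The listed genes have unrelated functions. Rapgef5 encodes an exchange factor that activates small GTPases of the Rap family, Cdca7l a nuclear partner of Myc, and Itgb8 the beta8 integrin subunit, which pairs with the alpha-v subunit and helps to activate TGF-beta in the developing brain. Nudt14 encodes a hydrolase that splits UDP-glucose, Rd3l a protein related to the photoreceptor protein Rd3, and Slc25a47 a mitochondrial carrier best known from liver. Evl is an actin regulator of the Ena/VASP family, and Eml1 binds microtubules and is needed for the placing of cortical neurons. Cyp46a1 is cholesterol 24-hydroxylase, the neuronal enzyme through which the brain disposes of cholesterol. No role is given here for the membrane protein Tmem121.

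Sp4 acts through GC boxes, so the promoter windows of the listed genes are shown where they hold the letters GGGCGG on either strand (CCGCCC on the strand printed). The windows of 300 bases span a transcript start, are taken from RefSeq on build GRCm38.p6, and cover all 10 genes with 16 windows. The motif was found in 5 of these 16 windows (31.2%) and in 5 of 10 genes. In the whole table of 32851 windows 35.7% held it, and in the windows of genes with a tested probe 61.6%. Counted by gene, the shares were 50% of the listed genes, 38.2% of all genes in the table and 68.9% of genes with a tested probe. The 5 windows are printed with the motif in capitals, 5' to 3' on the strand of the gene. Matches that share letters were each counted.
Rapgef5, chr12:117533678-117533977, plus strand: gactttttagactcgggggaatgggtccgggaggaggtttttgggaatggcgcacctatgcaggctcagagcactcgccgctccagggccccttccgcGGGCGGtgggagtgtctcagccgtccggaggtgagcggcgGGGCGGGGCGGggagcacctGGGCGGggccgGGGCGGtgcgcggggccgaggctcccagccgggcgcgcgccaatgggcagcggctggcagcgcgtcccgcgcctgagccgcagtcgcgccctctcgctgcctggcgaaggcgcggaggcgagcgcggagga
Tmem121, chr12:113185653-113185952, plus strand: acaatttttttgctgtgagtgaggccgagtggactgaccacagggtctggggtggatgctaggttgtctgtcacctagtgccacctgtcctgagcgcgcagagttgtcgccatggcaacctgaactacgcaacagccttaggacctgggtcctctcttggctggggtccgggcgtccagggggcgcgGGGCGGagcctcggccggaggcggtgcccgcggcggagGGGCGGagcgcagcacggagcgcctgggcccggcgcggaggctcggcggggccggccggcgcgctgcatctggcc
Nudt14, chr12:112942093-112942392, minus strand: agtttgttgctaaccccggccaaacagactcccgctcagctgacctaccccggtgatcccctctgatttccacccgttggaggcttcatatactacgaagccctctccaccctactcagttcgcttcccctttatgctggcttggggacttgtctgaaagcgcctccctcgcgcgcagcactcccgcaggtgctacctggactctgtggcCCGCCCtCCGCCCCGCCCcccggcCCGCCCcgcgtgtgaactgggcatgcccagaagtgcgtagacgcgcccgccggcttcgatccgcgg
Evl, chr12:108554470-108554769, plus strand: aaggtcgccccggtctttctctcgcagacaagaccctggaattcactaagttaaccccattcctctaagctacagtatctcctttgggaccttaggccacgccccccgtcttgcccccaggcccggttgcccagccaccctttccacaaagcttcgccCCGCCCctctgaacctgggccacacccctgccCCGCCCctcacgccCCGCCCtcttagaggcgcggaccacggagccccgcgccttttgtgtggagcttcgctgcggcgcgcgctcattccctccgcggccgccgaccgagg
Cyp46a1, chr12:108334066-108334365, plus strand: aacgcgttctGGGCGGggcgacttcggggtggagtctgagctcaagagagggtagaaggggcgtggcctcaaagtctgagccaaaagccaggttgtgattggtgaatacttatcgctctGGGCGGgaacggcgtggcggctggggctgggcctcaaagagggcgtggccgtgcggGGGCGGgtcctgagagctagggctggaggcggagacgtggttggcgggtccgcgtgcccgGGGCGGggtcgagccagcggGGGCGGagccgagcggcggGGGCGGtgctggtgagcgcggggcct
The Cyp46a1 window held 6 matches, the Rapgef5 window 5, the Nudt14 window 4, the Evl window 3 and the Tmem121 window 2. The other window of Rapgef5 and the other one of Evl held 0, as did those of Cdca7l, Itgb8, Rd3l, Slc25a47 and all 5 of Eml1. In human cells Sp factors are known to act on the CYP46A1 promoter. A match is a stretch of letters and not a measured binding site.

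Distances come from the RefSeq gene table of the same build and are counted between gene starts (the lower coordinate of each gene). Cdca7l lies 0.388 Mb and Rapgef5 0.715 Mb from Sp4 toward the centromere, and Itgb8 lies 0.931 Mb from it toward the distal end. Tmem121, Nudt14 and Rd3l follow at 5.05, 5.30 and 6.25 Mb toward the centromere. Slc25a47, Evl, Eml1 and Cyp46a1 form the farthest group, at 9.38, 9.68, 9.86 and 9.90 Mb. The list is therefore confined to the nearer part of a window of 20 Mb around Sp4.

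Of the 10 genes, 9 had a probe, 14 probes in all. A probe was tested when its detection p-value was under 0.05 on at least 3 of the 6 arrays, and 10 probes of 8 genes met this. Cdca7l had no probe in the annotation and is not analysed here. The 3 probes of Itgb8 were not well above background on any array, with non-normalized intensities from -25.9 to 19.3 on hypomorph arrays and from -25.3 to 29.5 on wild-type arrays. No fold is therefore given for Itgb8. A second Eml1 probe was above background on 1 array, wild type 3, and was not tested.

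The 6 arrays had between 18656 and 20135 probes above background, and 19515 probes were tested with limma, hypomorph minus wild type. With Benjamini-Hochberg adjustment over all of them 0 probes had an adjusted p under 0.05 (0% of tested probes), and 1036 had an unadjusted p under 0.05. The targeted gene was lower in the hypomorph. Sp4 probe ILMN_1259753 read 45.5, 40.3 and 63.9 in hypomorphs, against 201.6, 114.2 and 147.2 in wild type. Probe ILMN_1253376 passed the filter for testing through its wild-type arrays alone. On all 3 hypomorph arrays it stayed within background, which puts it at least 1.5-fold below wild type on this scale. In the authors' processed table the log2 differences were -0.60 for ILMN_1259753 and -0.45 for ILMN_1253376, the second a smaller difference than that bound. The tissue label was checked on marker lists: 12 of 14 granule cell and 6 of 12 Purkinje cell markers were measured (10 of these 12 had a probe). The median signal of the measured ones stood above 91.6% and 96.7% of tested probes. Of 12 markers of neighbouring brain regions 4 were measured, with a median signal above 8.95% of tested probes. Oligodendrocyte and myelin markers were lower in the hypomorph for 12 of 13 measured genes (median log2 difference -0.20). Their summed normalized intensities were 120085 to 142753 in hypomorphs and 132205 to 155044 in wild type. Lower values also prevailed for Bergmann glia and astrocytes (9 of 11 genes) and for meninges, choroid plexus and ependyma (6 of 8). The same held for endothelial and mural cells (7 of 11) and neighbouring brain regions (4 of 4). Higher values prevailed for granule cells (7 of 12) and microglia (7 of 10), and Purkinje markers were even (3 and 3). By the brightest probe, 5591 of 10764 genes were lower. The part of these cell types in the values of the listed genes was not tested. In bulk tissue fewer cells of a type and less RNA per cell cannot be told apart.

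All 10 tested probes of the listed genes had an unadjusted p under 0.05, 7 higher and 3 lower in the hypomorph, where 5.31% of all tested probes did (2.49% higher, 2.82% lower). The groups did not overlap on 7 of the 10, against 10.5% of all tested probes (5.5% higher, 5.02% lower). Since the genes were picked on this contrast, nothing is read from these shares. None of the 10 reached an adjusted p under 0.05. The median size of their log2 differences was 0.77, against 0.13 over all tested probes.

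**Figure D1:**
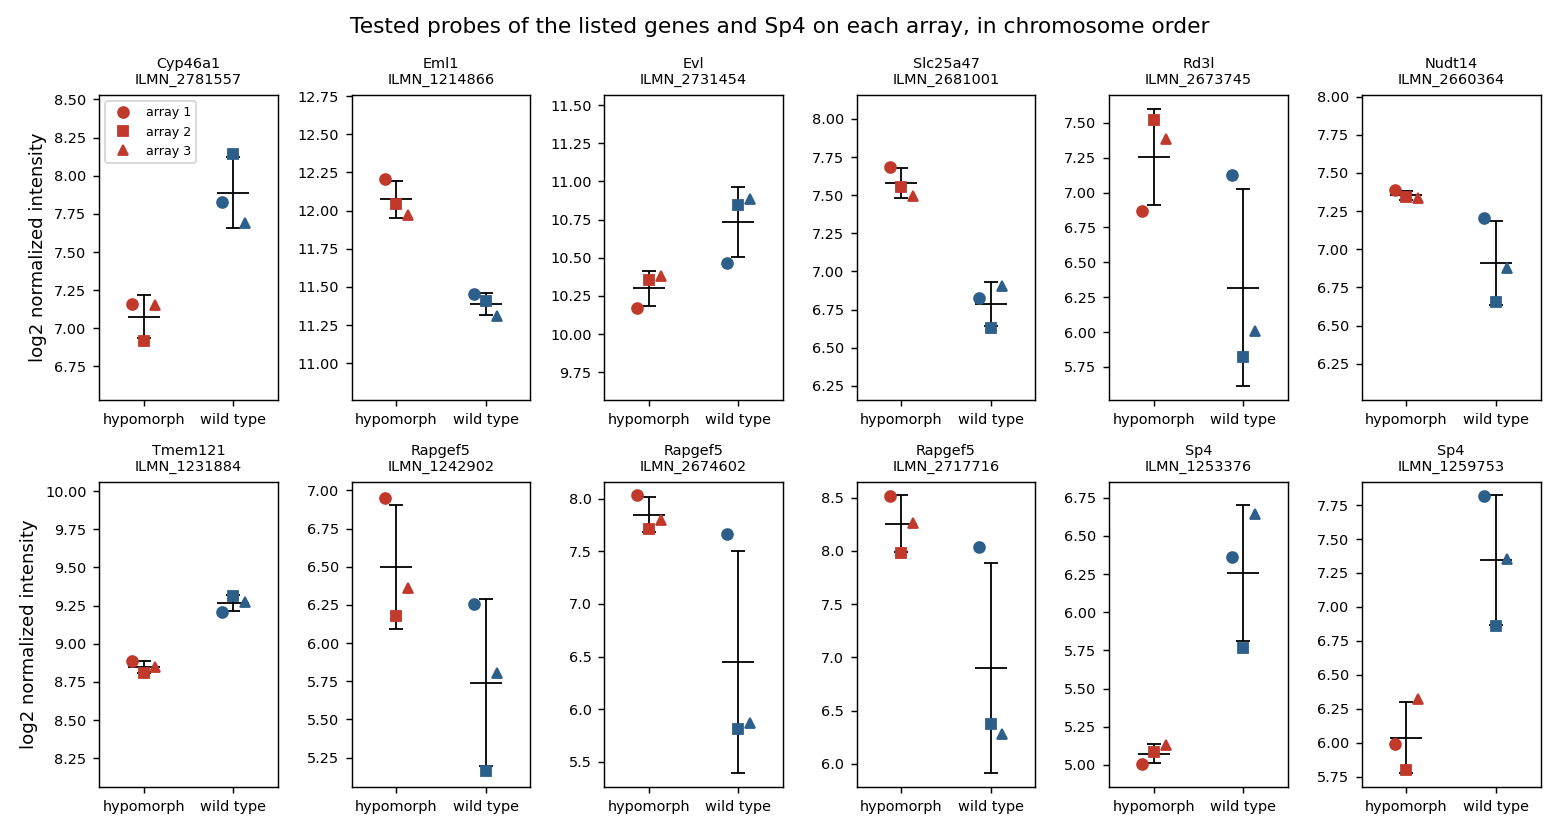
Log2 normalized intensity (vertical axis, each panel its own range) of the 10 tested probes of the listed genes and 2 probes of Sp4, in chromosome order, with hypomorph arrays left and wild-type arrays right of each panel. Symbols mark the array number, horizontal bars the group mean and whiskers the SD (n = 3). The wild type 1 circle of the Rapgef5, Rd3l, Nudt14 and Evl panels lies toward the hypomorph values.

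Rapgef5, the measured gene next to Sp4, was higher in the hypomorph on each of its 3 probes. Probe ILMN_2717716 read 338.2, 225.9 and 289.6 in hypomorphs 1, 2 and 3, against 238.4, 75.7 and 62.1 in wild types 1, 2 and 3. Wild type 1 lay inside the hypomorph range, and the other two wild types were far below it. The means were 8.25 ± 0.27 in the hypomorph and 6.90 ± 0.98 in wild type (log2 normalized intensity, SD, n = 3 each), a log2 difference of 1.35 (SE 0.45) and a fold of 2.56. Probe ILMN_2674602 read 236.5, 186.2 and 205.4 in hypomorphs, against 179.1, 43.3 and 41.9 in wild type. Here wild type 1 fell just short of the lowest hypomorph, so the groups did not overlap, and the log2 difference was 1.40 (SE 0.47). The dimmer probe ILMN_1242902 read 102.7, 57.8 and 66.1 in hypomorphs, against 56.8, 13.4 and 38.9 in wild type, a log2 difference of 0.75 (SE 0.31). Its signal was not above background on wild type 2. On the first and second of these probes wild type 1 stood apart from the other two wild types, and on the third the 3 wild types were spread out, with wild type 2 farthest from their mean. Without wild type 1 the log2 differences were 1.92, 2.01 and 1.01 in the order of the probes above. Without wild type 2 that of ILMN_1242902 was 0.47.

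Among the middle group, Tmem121 was lower in the hypomorph. It read 445.1, 404.6 and 443.0 in hypomorphs, against 563.1, 701.1 and 605.6 in wild type. The groups were tight and lay apart, with means of 8.85 ± 0.04 in the hypomorph and 9.26 ± 0.05 in wild type (SD, n = 3 each), a log2 difference of -0.42 (SE 0.12).

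Nudt14, which lies beside Tmem121 in the list, was higher. It read 143.7, 143.1 and 145.3 in hypomorphs, against 125.8, 96.7 and 101.4 in wild type. The 3 hypomorphs were nearly equal, wild type 1 came closest to them, and the groups did not overlap. The log2 difference was 0.44 (SE 0.17), from means of 7.35 ± 0.03 in the hypomorph and 6.91 ± 0.27 in wild type (SD, n = 3 each).

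Rd3l was also higher on average, but its groups overlapped. It read 96.5, 162.8 and 151.2 in hypomorphs, against 118.3, 43.8 and 48.1 in wild type. Wild type 1 stood above hypomorph 1, while wild types 2 and 3 were below all hypomorphs. The log2 difference was 0.94 (SE 0.36) over the 6 arrays and 1.34 without wild type 1.

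The farthest 4 genes stand close together, and the direction changed from each to the next. Cyp46a1, the outermost, was lower: 121.4, 104.3 and 125.1 in hypomorphs, against 203.3, 302.2 and 190.2 in wild type. Each hypomorph was below each wild type, with means of 7.08 ± 0.14 in the hypomorph and 7.89 ± 0.23 in wild type (SD, n = 3 each). The log2 difference was -0.81 (SE 0.16), or 1.76-fold lower.

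Eml1, the next gene, was higher on its bright probe ILMN_1214866. It read 4682, 3916 and 4009 in hypomorphs, against 2783, 2883 and 2530 in wild type. The groups lay apart by more than the spread within either, at 12.07 ± 0.12 in the hypomorph and 11.39 ± 0.07 in wild type (SD, n = 3 each), a log2 difference of 0.68 (SE 0.13). The probe stands above 89.5% of tested probes in mean signal, and its difference was 0.66 with the authors' processed values. The untested Eml1 probe ILMN_3137207 read 21.8, 17.1 and -4.0 in hypomorphs, against 3.2, 20.2 and 42.5 in wild type, and shows no level.

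Evl, beside Eml1, was lower. It read 1124, 1201 and 1317 in hypomorphs, against 1404, 1970 and 1879 in wild type. Wild type 1 was again the one nearest to the hypomorphs, and the groups did not overlap. The log2 difference was -0.43 (SE 0.16), or -0.57 without wild type 1.

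Slc25a47 was higher, at 180.4, 167.3 and 163.3 in hypomorphs, against 91.6, 94.4 and 103.8 in wild type. Both groups were tight, at 7.58 ± 0.10 in the hypomorph and 6.79 ± 0.14 in wild type (SD, n = 3 each), and lay apart. The log2 difference was 0.79 (SE 0.14), or 1.73-fold.

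By the brightest probe of each gene, wild type 1 was the wild-type array nearest to the hypomorph mean for 6 of the 8 tested genes, and wild type 3 for 2 of them (Cyp46a1 and Slc25a47). Over all tested probes wild type 1 was the nearest one for 30.2% and wild type 3 for 36.9%. Among the 6 genes, the wild types of Tmem121 and Eml1 lay close together (SD 0.05 and 0.07), so which one was nearest says little there. The count of 6 was chosen after the values were seen. Over tested probes wild type 1 correlated most closely with hypomorph 1 (0.986, the highest of any pair of arrays) and least with hypomorph 2 (0.968, the lowest of any pair).

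Between and beside the listed genes, 10 other genes with a tested probe are direct neighbours of a listed gene or of Sp4. Their 15 probes had log2 differences from -0.73 to 0.62 with a median of 0.17. An unadjusted p under 0.05 in limma was found for 0 of them (5.31% of all tested probes), the smallest being 0.0916. Since the listed genes were picked on this contrast, that choice shapes this 0 and nothing is read from it. The groups did not overlap on 2 of the 15 (10.5% of all tested probes), both of Wars, a transfer RNA synthetase next to Slc25a47. Its 4 probes differed by 0.33, 0.28, 0.08 and -0.03. Slc25a29, a mitochondrial carrier of basic amino acids between Evl and Slc25a47, differed by 0.17 (SE 0.14). Ccnk, the cyclin on the outer side of Cyp46a1, differed by -0.07 (SE 0.21).

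Crip2, a LIM domain protein beside Tmem121, differed by 0.14 (SE 0.17). Jag2, a Notch ligand, and Brf1, a subunit of an RNA polymerase III factor, flank Nudt14 and differed by -0.19 (SE 0.41) and 0.21 (SE 0.14). Beside Rd3l, Atp5mpl, a small subunit of ATP synthase, differed by -0.06 (SE 0.14) on its bright probe and by 0.32 (SE 0.19) on the other. The formin Inf2 differed by -0.73 (SE 0.40), with hypomorph 2 the lowest array, at 64.2 against 199.4 and 193.5 in the other two hypomorphs.

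No other tested gene lies between Rapgef5 and Sp4. On the centromere side of Rapgef5, Ptprn2, a phosphatase-like protein of secretory vesicles, differed by 0.19 (SE 0.23). Its probe was above background on only 3 of the 6 arrays, with intensities from 15.1 to 43.2, so this difference says little. The zinc-finger gene Zfp386, the nearest tested gene on the Sp4 side of Tmem121, differed by 0.62 (SE 0.34) on ILMN_3067404, which read 111.6, 79.8 and 139.3 in hypomorphs, against 115.2, 51.3 and 46.4 in wild type. Wild type 1 was again level with the hypomorphs there. Its other probe differed by 0.17 (SE 0.16). On the distal side of Sp4 the annotation names 4 genes with 6 probes, and 0 of the 6 were tested or above background on any array, so nothing can be said of that side.

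**Figure D2:**
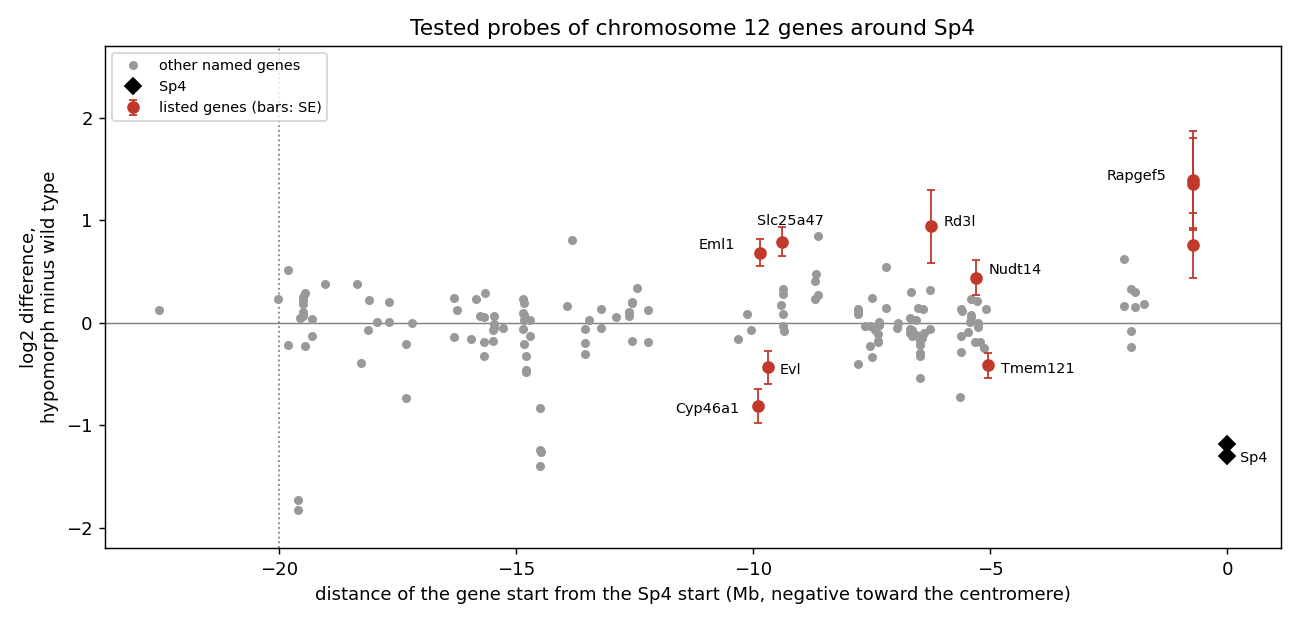
Log2 difference, hypomorph minus wild type (vertical axis), of each tested probe against the distance of its gene start from the Sp4 start in Mb (horizontal axis). Listed genes are red with bars for the SE, Sp4 is black and other named genes are grey; the dotted line marks 20 Mb. The 3 Rapgef5 probes lie between 0.75 and 1.40, and listed genes on both sides of 0 lie about 5 to 10 Mb from Sp4.

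Taking all genes by position alone, 175 genes with 326 probes lie within 20 Mb of Sp4, and 101 genes with 166 probes were tested. Their median log2 difference was 0.01, with 84 probes higher and 82 lower, against a median of 0.00089 over all tested probes. An unadjusted p under 0.05 in limma was found for 16 probes (9.64%), against 5.31% of all tested probes, and none passed the adjustment. Of these 16 probes, 10 belong to the listed genes and 2 to Sp4. Without them 4 of 154 probes (2.60%) remained, beside 5.31% in the array as a whole. This order depended on the setting: the share outside the list and Sp4 was 6.45% with no filter (5.08% of all probes), 17.5% with array weights (11.9%), 7.14% without hypomorph 1 (5.98%) and 6.49% without wild type 1 (4.801%). The groups did not overlap on 21 of the 166 probes (12.7%), and on 12 of 154 (7.79%) without the listed genes and Sp4, beside 10.5% of all tested probes. Leaving the listed genes out removes exactly those picked for their differences, so the share with them is raised and the share without them lowered by that choice.

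By distance, 5 of 13 probes within 5 Mb had an unadjusted p under 0.05, 3 of Rapgef5 and 2 of Sp4, and the other 8 had none. Between 5 and 10 Mb there were 7 of 75, all of listed genes, and 0 of the remaining 68. The listed genes were picked on this contrast, so that choice shapes the counts of both bands with and without them. Nothing is read from these counts. Between 10 and 20 Mb there were 4 of 78 (5.13%), and on the rest of chromosome 12 there were 24 of 402 (5.97%). Other chromosomes stood at 5.34%. The median size of the log2 difference was 0.21 for the 8 other probes within 5 Mb, 0.13 for the 68 between 5 and 10 Mb and 0.18 for the 78 between 10 and 20 Mb, against 0.13 for all tested probes. The 8 probes belong to only 4 genes and are dim, with mean log2 intensities from 5.57 to 7.79. Genes picked for their differences were left out within 10 Mb, so nothing is read from these sizes either.

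**Figure D3:**
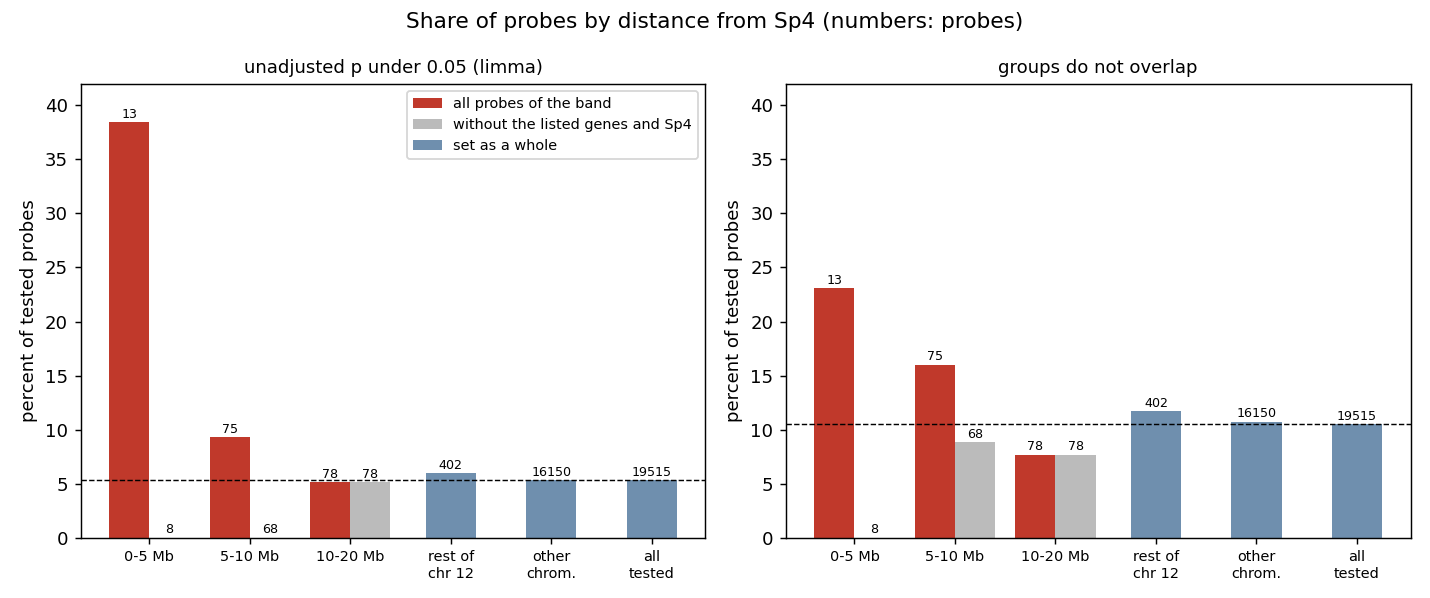
Percent of tested probes with an unadjusted p under 0.05 (left) and with groups that do not overlap (right), by distance from Sp4, for the rest of chromosome 12, for other chromosomes and for all tested probes (dashed line). Red bars include the listed genes and Sp4, grey bars leave them out, and the numbers are probes. Within 10 Mb the grey bars of the left panel are at 0, where the listed genes left out had been picked on this contrast.

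The edge of the window was set by distance alone, and whether the values change there was not tested. Kcnk10, a potassium channel gene 19.8 Mb from Sp4, differed by 0.51 (SE 0.36) on its brightest probe and by -0.21 (SE 0.17) on its other. Galc, the lysosomal enzyme gene just outside the window, differed by 0.23 (SE 0.25). The 4 probes of the window with an unadjusted p under 0.05 outside the list and Sp4 came from 3 genes. Serpina3n, a protease inhibitor made by reactive astrocytes, was higher: 1049, 1740 and 1132 in hypomorphs, against 710.0, 657.5 and 990.3 in wild type, a log2 difference of 0.80 (SE 0.27, unadjusted p = 0.0211, adjusted p = 0.834 in limma). Its groups did not overlap, and hypomorph 2 was the highest. Ccdc88c, a Wnt pathway regulator, stayed within background in the 3 hypomorphs on ILMN_2807229, at least 1.34-fold below wild type (adjusted p = 0.666 in limma). This probe passed the filter through its 3 wild-type arrays alone, so nothing is read from its p. With the authors' processed values its log2 difference was -0.26, smaller than that bound. The other Ccdc88c probe differed by -0.21 (SE 0.18).

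Spata7, a gene of the photoreceptor cilium, was within background in hypomorphs 2 and 3 on both of its probes, so the size of its difference is uncertain. Probe ILMN_2691469 read 61.6, 0.8 and 7.3 in hypomorphs, against 52.2, 302.9 and 163.6 in wild type, a log2 difference of -1.83 (SE 0.55, adjusted p = 0.755 in limma). Hypomorph 1 and wild type 1 had nearly the same signal, and the groups overlapped. The second probe gave -1.73 (SE 0.63), with 80.2, -10.02 and 0.66 in hypomorphs, against 48.4, 274.1 and 160.7 in wild type.

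Other genes of the window with a fold of at least 1.2 and the smallest p values were Rtl1 (0.47, SE 0.21), Itpk1, an inositol phosphate kinase (0.29, SE 0.14), and Foxn3, a forkhead repressor (0.37, SE 0.19), with higher values. Lower values were found for Wdr20, a partner of deubiquitinating enzymes (-0.34, SE 0.15, with 0.24 on its second probe), Dicer1, the nuclease of microRNA processing (-0.31, SE 0.15, with -0.20 and -0.06 on its others), and the kinesin light chain Klc1 (-0.30, SE 0.15, with -0.18 to -0.54 on its other 4 probes). None of these had an unadjusted p under 0.05. Rtl1 belongs to the imprinted Dlk1-Dio3 domain, which lies between Slc25a47 and Rd3l. In this domain Meg3 differed by 0.41 (SE 0.58) and 0.23 (SE 0.54) on its probes, with hypomorph 2 the highest array on both. Of 8 genes named for the domain 4 were measured, and 3 of them (Meg3, Rtl1 and Rian) were higher. By the brightest probe 48.1% of all genes were higher, and nothing is read from that count. Rian, like Meg3, was highest in hypomorph 2.

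Over the 6 arrays, the genes of the window whose brightest probe followed Rapgef5 probe ILMN_2717716 most closely were Nudt14 (Pearson r = 0.95), Esyt2, a lipid transfer protein of membrane contacts (0.92), and Gskip, a small partner of the kinase GSK3 (0.92). The most opposite were Evl (-0.98), Wdr20 (-0.88) and Eml5 (-0.85). These are 6 of 100 genes compared, the points share the normalization and the 2 groups, and the values are a description. Esyt2 differed by 0.30 (SE 0.19) and Gskip by 0.20 (SE 0.18) on these probes.

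Relatives of the listed genes, mostly on other chromosomes, were followed for comparison (39 genes, among them Eml5 and Slc25a29, which lie in the window). Of 31 measured relatives 12 were higher and 19 lower by their brightest probe, with a median log2 difference of -0.06, against 0.00089 over all tested probes. An unadjusted p under 0.05 was found for 3 of their 43 probes, beside 5.31% of all tested probes (2.82% lower), so nothing is read from that count. All 3 probes were lower. They belong to Eml3, a microtubule protein like Eml1 (-0.56, SE 0.19, and -0.53, SE 0.24, on its second probe), Cyp51, a sterol demethylase (-0.56, SE 0.22), and Slc25a20, the carnitine carrier of mitochondria (-0.35, SE 0.13, with 0.06 on its second probe). Eml3 and Eml1 thus differed in opposite directions. The brightest relatives, Nudt11 and Nudt4, differed by -0.07 (SE 0.15) and 0.01 (SE 0.15).

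Of 24 measured partners of the listed genes 13 were higher and 11 lower, with a median of 0.01, and 3 of 38 probes had an unadjusted p under 0.05, beside 5.31% of all tested probes, so nothing is read from that count. Itgav, which encodes the alpha-v partner of beta8 integrin, was higher on ILMN_1238119, at 65.0, 76.6 and 79.4 in hypomorphs, against 52.8, 54.0 and 52.3 in wild type (log2 difference 0.39, SE 0.13, adjusted p = 0.804 in limma), and differed by -0.04 (SE 0.16) on its dimmer probe. Among genes that switch Rap off, Rap1gap differed by 0.60 (SE 0.19) on ILMN_2942117, by 0.17 (SE 0.13) on its brightest probe and by 0.02 (SE 0.14) on the third. Sipa1, another Rap inactivator, was within background in all hypomorphs and above it in all wild types, at least 1.24-fold below wild type (adjusted p = 0.339 in limma). Its probe passed the filter through the wild-type arrays alone, so nothing is read from its p. The brightest partners, Actb and Tubb5, differed by -0.12 (SE 0.15) and 0.14 (SE 0.14) on their brightest probes.

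The direction of every tested probe of the listed genes and of Sp4 was the same in all settings tried. In the authors' processed table the differences were smaller for dim probes, at 0.42 for Slc25a47, -0.48 for Cyp46a1, 0.23 for Nudt14, 0.42 for Rd3l and between 0.29 and 0.76 for Rapgef5, and nearly the same for Evl (-0.40) and Eml1.

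**Figure D4:**
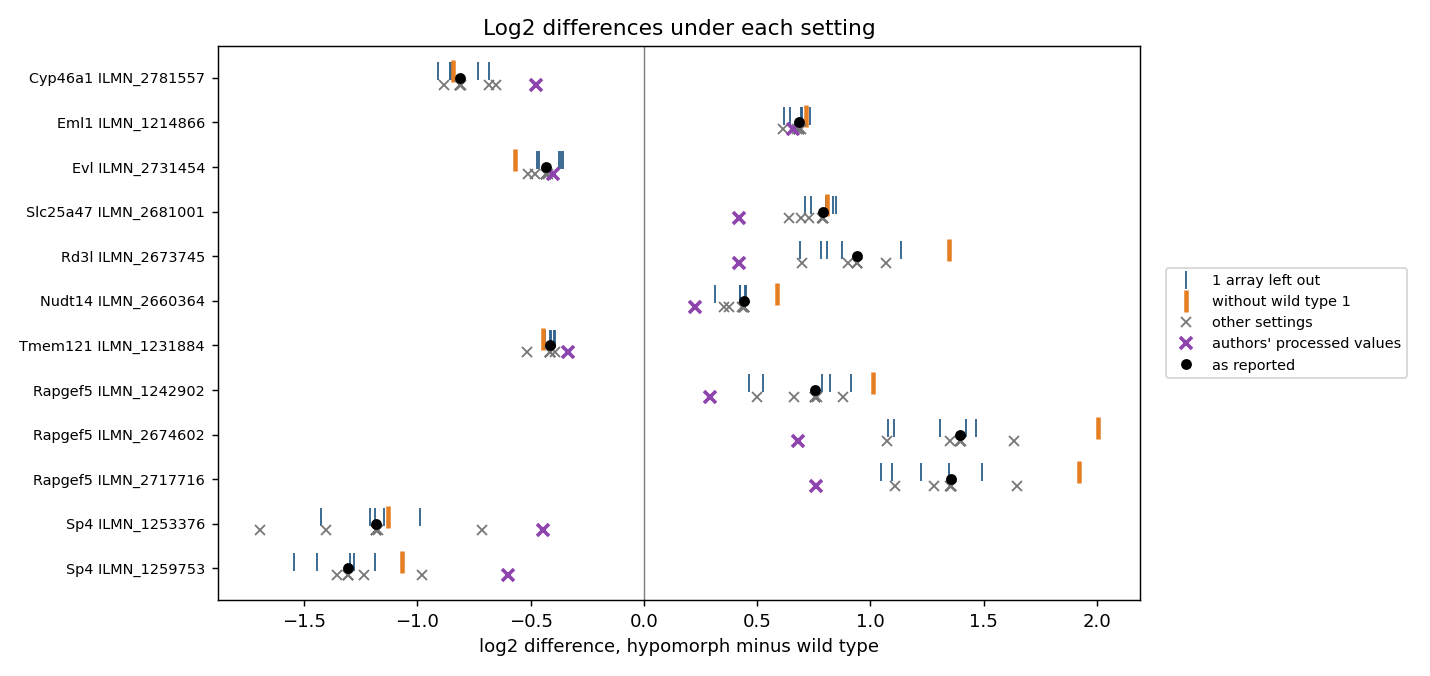
Log2 difference, hypomorph minus wild type (horizontal axis), of each tested probe of the listed genes and Sp4 (rows) as reported (black), with 1 array left out (blue, wild type 1 in orange) and under other settings (grey, the authors' processed values in purple). No probe crosses 0, and leaving out wild type 1 gives the highest values for Rapgef5, Rd3l and Nudt14.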

How the data were processed

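Labelled complementary RNA of cerebellum from 6 mice was read on Illumina bead arrays, and the submitters' processing notes name BeadStudio, without a version, a background step or a build. The authors deposited non-normalized intensity values on a linear scale, already background-subtracted since they reach -42.8, beside detection p-values per array. A second table deposited by the authors holds processed intensity values on a linear scale, with array medians between 161.3 and 161.5; its method is not stated.

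Values were background-corrected from the detection p-values, quantile-normalized and put on a log2 scale with an offset of 16 (neqc of limma 3.58.1, R 4.3.3), which makes differences of dim probes smaller. Only probes detected (p under 0.05) on 3 or more of 6 arrays were tested with lmFit and eBayes, without a block, and adjusted over 19515 probes by the Benjamini-Hochberg method. The fit was checked on simulated data. Tables were summarised in Python 3.11.15. The precision rests on 3 arrays per group, each from 1 animal; no label says that the number marks a littermate pair.

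Of the probes, 34885 had 1 gene symbol, 18 several and 10378 none; 34807 were placed by the RefSeq gene table of GRCm38.p6. Folds against a group with no array above background are bounds on group means: per array, the dim group takes its own signal or the lowest one above background, whichever is greater. Besides the listed genes and Sp4, genes were named by a rule: nearest tested neighbours, up to 6 window genes per direction with the smallest p and a fold of at least 1.2, members of the lists of relatives, partners and imprinted genes with an unadjusted p under 0.05 or the brightest signal, and the genes most like Rapgef5. Members, lists and rule were chosen with earlier results of these data known.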

Additional observations from a re-analysis of the deposited data

How the results depend on the processing

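The count of probes with an adjusted p under 0.05 over the whole array was 0 as reported, 1 without background correction, 2 with the stricter filter (detection p under 0.01 on all 6 arrays), 5 with an offset of 50, 8 with the authors' processed values, 8 with a variance trend and robust moderation, 13 with array weights, 0 to 2 with 1 array left out, and 2 with the number in the label as a replicate block; the listed genes held 0 of them in each setting. Same-numbered arrays had deviations from their group means that correlated at 0.44, 0.40 and 0.062, and each array correlated best with its own number. For number 3 the lead was narrow, at 0.062 against 0.043 for hypomorph 1 with wild type 3. Hypomorph 1 with wild type 2 stood at -0.44, and hypomorph 2 with wild type 1 at -0.36. That is at most a hint of pairs for numbers 1 and 2 from the data, and not the design. The numbers were not taken as pairs because no label says that they mark littermates. The window count of 16 probes with an unadjusted p under 0.05 became 32 of 326 with no filter, 10 of 128 with the stricter filter, 39 of 166 with array weights (where 11.9% of all probes passed), 40 of 568 over all of chromosome 12, 4 without the listed genes and Sp4, 21 with the replicate block (where 9.31% of all probes passed), and 10 to 22 with 1 array left out, the lowest without wild type 3. The window median became -0.069 with median scaling, which moved that of all probes to -0.067, and -0.0091 to 0.020 with 1 array left out. Probes whose groups do not overlap numbered 43 of 326 with no filter, and 30 to 47 with 1 array left out, where fewer arrays make separation easier (17.3% to 25.3% of all probes). The filters, the variance trend and the replicate block leave a probe's difference as it is; of the 132 differences recomputed in the other settings, 122 moved by less than the SD between arrays, 10 moved further and none changed sign; with 1 array left out, 4 to 10 of the 10 listed probes kept an unadjusted p under 0.05. The number of arrays, and signals near background for Rapgef5, Rd3l and Sp4, limit every value.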

Other observations

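Within 20 Mb of Sp4, 10 of 154 probes outside the list and Sp4 (6.49%) had a log2 difference of at least 0.7 in size, against 1.80% of all tested probes. This limit was chosen after the values were seen, and in some of these genes the animals of 1 group differed widely. Several of the 10 probes belong to the same gene, as for Serpina1b and Spata7, so they are not independent counts. Some passed the filter through wild type, where all 3 arrays were above background. In hypomorphs Ccdc88c ILMN_2807229 was above background on 0 arrays. Both Spata7 probes, Serpina1d and Serpina1b ILMN_1215859 were above it on 1 hypomorph array. Their sizes thus rest on signals within background, and nothing is read from the share of 6.49%. The alpha-1 antitrypsin genes Serpina1b and Serpina1d, 14.5 Mb from Sp4, are near-identical copies whose probes may share signal. Serpina1b probe ILMN_2659680 read 23.5, 602.1 and 44.5 in hypomorphs, against 319.5, 266.6 and 350.1 in wild type. Hypomorph 2 was thus the highest of all 6 arrays, and hypomorphs 1 and 3 were the lowest. Serpina1d read 9.9, 201.1 and 3.3 in hypomorphs, against 113.1, 134.1 and 172.8 in wild type, again highest in hypomorph 2. The imprinted transcript Rian read 44.8, 413.5 and 41.0 in hypomorphs, against 54.0, 48.2 and 46.9 in wild type, so 1 animal made its log2 difference of 0.85 (SE 0.74). Hypomorph 2 was also the lowest array for Inf2 and the highest for Serpina3n.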
